A study of Mus musculus with 4 samples.

Results

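Reference genes are the genes against which a real-time RT-PCR measurement is set, and the 9 described here are Actb, Tbp, Hprt1, Ppia, B2m, Ywhaz, Tubb5, Gusb and Tfrc. They were chosen by name, as genes in common use for this purpose, with earlier results of these data known. Every array probe that carried one of these gene names was taken, whatever its values. The 9 are among 26909 gene names with a value on every array. The choice gave 17 probes of the 41174 mouse probes on each array, and they occupied 80 of its 43379 spots, because 1 probe each for Actb, Tbp, Hprt1, Ppia, B2m, Gusb and Tfrc was spotted 10 times. The remaining 10 probes were spotted once. The cells were 3T3-L1, a mouse preadipocyte line that turns into fat cells under a hormone mix, and RNA was taken on day 2 of that process. All 4 cultures received dexamethasone at 1 µM, IBMX at 0.5 µM and insulin at 10 µg/ml, with DMSO at 0.1% as the vehicle throughout. The control had the vehicle alone, and the others had bilberry extract at 100 µg/ml or 1 of the anthocyanidins delphinidin and cyanidin at 100 nM. Each condition was read on 1 whole-genome oligonucleotide array with 1 dye, so no difference between conditions has a replicate check and none was tested.

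Reference genes are often called housekeeping genes because nearly every cell needs their products. The set spans the cytoskeleton (Actb and Tubb5), transcription (Tbp), nucleotide salvage (Hprt1), protein folding (Ppia), antigen presentation (B2m), signalling adaptors (Ywhaz), lysosomal breakdown (Gusb) and iron uptake (Tfrc). In preadipocytes the actin network is known to be taken apart and rebuilt as the cells round up, and the cells divide again early after induction. The study set its own RT-PCR measurements against β-actin, the product of Actb.

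A level is given here as log2 of a probe's processed signal over the 75th percentile of the same array, and a ratio is the level in a treatment minus the level in DMSO. That percentile was 861 in DMSO, 576 under bilberry, 1009 under delphinidin and 1016 under cyanidin. A probe is called detected where the scanner software marked it as well above background. Such probes numbered 22784 to 24950 per array, and 21444 were detected on all 4. The bilberry array stood apart, since its spike-in control RNAs read 0.95 higher than in DMSO on the unscaled log2 signal, while those of delphinidin and cyanidin read 0.03 and 0.00 lower. Scaling to the spike-ins in place of the 75th percentile lowered every bilberry ratio by 1.53. It raised the delphinidin and cyanidin ratios by 0.26 and 0.24. These shifts combine the spike-in differences with the differences in the 75th percentile. Each bilberry direction below is thus one relative to the other genes of that array. All 11 preadipocyte and adipocyte markers examined were detected on all 4 arrays. Of 11 markers of leukocytes, endothelium, epithelium and muscle, 9 were so on no array, Cd68 was on all 4 and Myh3 on the bilberry array alone. In RNA from a whole culture, fewer cells expressing a gene and less of its RNA per cell cannot be told apart.

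The 9 genes were not equally steady. Tfrc was higher than in DMSO in all 3 treatments, by 1.78 under bilberry, 1.59 under delphinidin and 1.17 under cyanidin on the log2 scale. Actb, by either of its probes, was higher with bilberry and between -0.10 and -0.00 from DMSO with delphinidin and cyanidin. Spike-in scaling turned the bilberry direction and put the delphinidin and cyanidin ratios at 0.15 to 0.26. Of the 15 probes detected on all 4 arrays, 2 were past 2-fold from DMSO with bilberry (13.3%), where 11.1% of all such probes were. With delphinidin 1 of 15 was past it (6.67%, against 2.41% of all), and with cyanidin 1 of 15 (6.67%, against 2.3%). These were Tfrc in each treatment and a Tubb5 probe with bilberry, all of them higher than in DMSO, a direction in which 4.17%, 1.04% and 0.49% of all detected probes passed 2-fold. Past 1.5-fold the counts were 6, 2 and 2 of 15, beside 33.1%, 9.87% and 10.1% of all probes. Higher than DMSO by any amount were 12, 10 and 9 of 15, beside 59.5%, 45.9% and 48.8% of all.

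When each gene was represented by its brightest probe, 8 of the 9 were higher under bilberry, 7 under delphinidin and 7 under cyanidin. The median ratios were 0.46, 0.18 and 0.12, beside 0.14, -0.03 and -0.01 over all 21444 probes. B2m counted as higher with bilberry and cyanidin by its brightest probe, which was spotted once. Its probe spotted 10 times was lower in both, by ratios of -0.14 and -0.09. The bilberry count depended on the scaling and was 7 after quantile normalization and 1 under the spike-ins. The normexp background correction gave 5 when fitted on all spots and 8 when refitted without spots marked for their background. The all-spot fit put the bilberry background mean at -345, against -5.65 in the refit and -6.15 to -3.88 on the other arrays. From the lowest to the highest of the 4 arrays, the genes ranged over 0.19 to 1.78 with a median of 0.46. The median range of all detected probes was 0.56. A range over 2-fold was found for 3 of the 9 genes (33.3%), namely Actb, Tubb5 and Tfrc, and for 17.6% of all probes. Actb counts here by its BC016624 probe, with 1.07, and its NM_007393 probe had 0.80, under 2-fold. The 3 treatments share the DMSO array, so an unusual DMSO value would shift all 3 ratios of a gene.

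**Figure D1:**
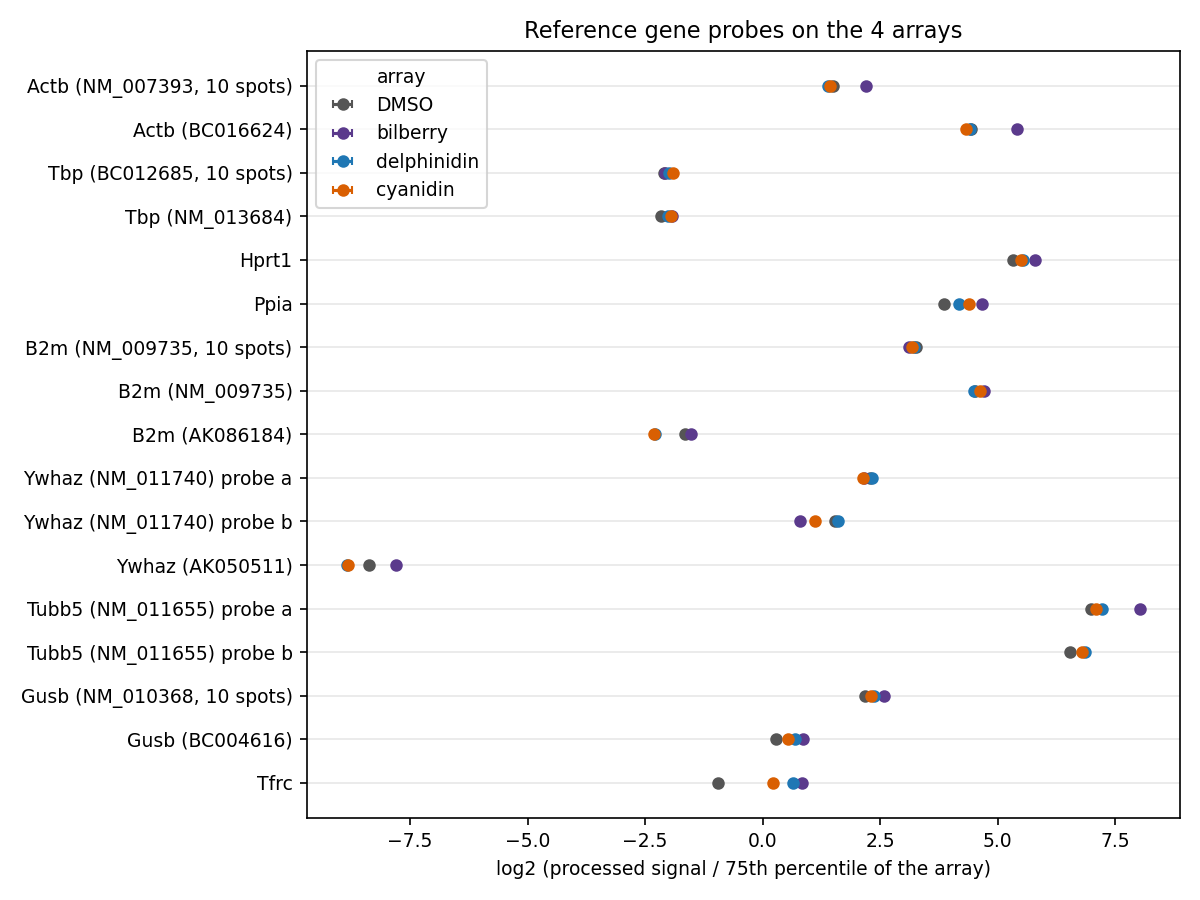
Level of each member probe on the 4 arrays (log2 of processed signal over the array's 75th percentile), with the SD over spots, mostly smaller than the points, for probes spotted 10 times. Levels are to be read along a line and not between probes, the Ywhaz clone probe AK050511 was not detected on any array, and the Tfrc level runs from -0.95 in DMSO to 0.83 with bilberry.

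**Figure D2:**
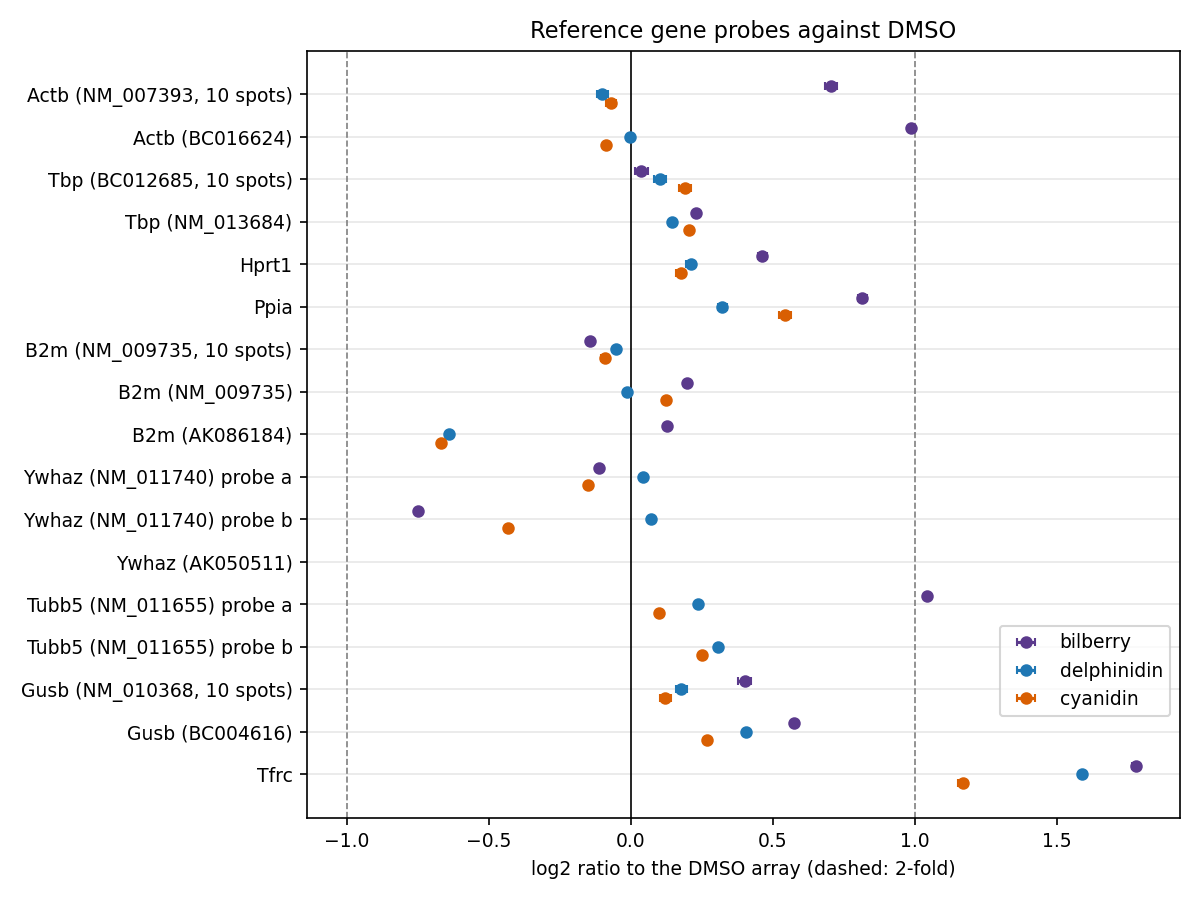
Log2 ratio to DMSO of each member probe in the 3 treatments, with dashed lines at 2-fold and, for probes spotted 10 times, the standard error from spots alone. Tfrc lies beyond the 2-fold line in all 3 treatments, and bilberry points lie to the right of the other treatments for Actb, Tubb5 and Ppia, an order that holds for the 75th percentile scaling, turns under the spike-ins and, for Ppia, also with the all-spot normexp fit.

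Tfrc encodes transferrin receptor 1, which carries iron-loaded transferrin into the cell. Its mRNA is known to be stabilized when iron is scarce and to be plentiful in dividing cells. The NM_011638 probe lies on chromosome 16 (mm8, chr16:32551916-32551975, plus strand). Positions here are those printed in the array files, whatever their length. The processed signal of the Tfrc probe was 450 in DMSO, 1019 under bilberry, 1579 under delphinidin and 1184 under cyanidin. As levels these were -0.95 ± 0.035 (SD over 9 spots), 0.83 ± 0.021 (7 spots), 0.64 ± 0.016 (8 spots) and 0.22 ± 0.033 (9 spots). The spots of the 4 arrays did not overlap, and the order was bilberry, delphinidin, cyanidin and DMSO from the top. The folds over DMSO were 3.43, 3.01 and 2.25. Delphinidin stood 0.42 above cyanidin at the same dose, and 0.802% of all detected probes were past 2-fold between these arrays, which Tfrc was not.

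Where spots at the same array position were paired, the Tfrc ratios were 1.75 to 1.87 with bilberry, 1.56 to 1.65 with delphinidin and 1.11 to 1.20 with cyanidin. The spread over spots covers only the reading of 1 hybridised sample and not the culture. Tfrc was higher than DMSO in each treatment under the spike-ins also, by 0.25, 1.85 and 1.41, although the bilberry ratio was then no longer past 2-fold and lay below the other treatments. The bilberry ratio was 1.40 with the all-spot normexp fit, below delphinidin, and 1.62 with the refit, above it. All 3 treatments were over 2-fold higher than DMSO at 44 of the 21444 probes (0.205%). A larger range than that of Tfrc was seen at 626 of them, and at 2 of the 143 probes spotted 10 times.

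**Figure D3:**
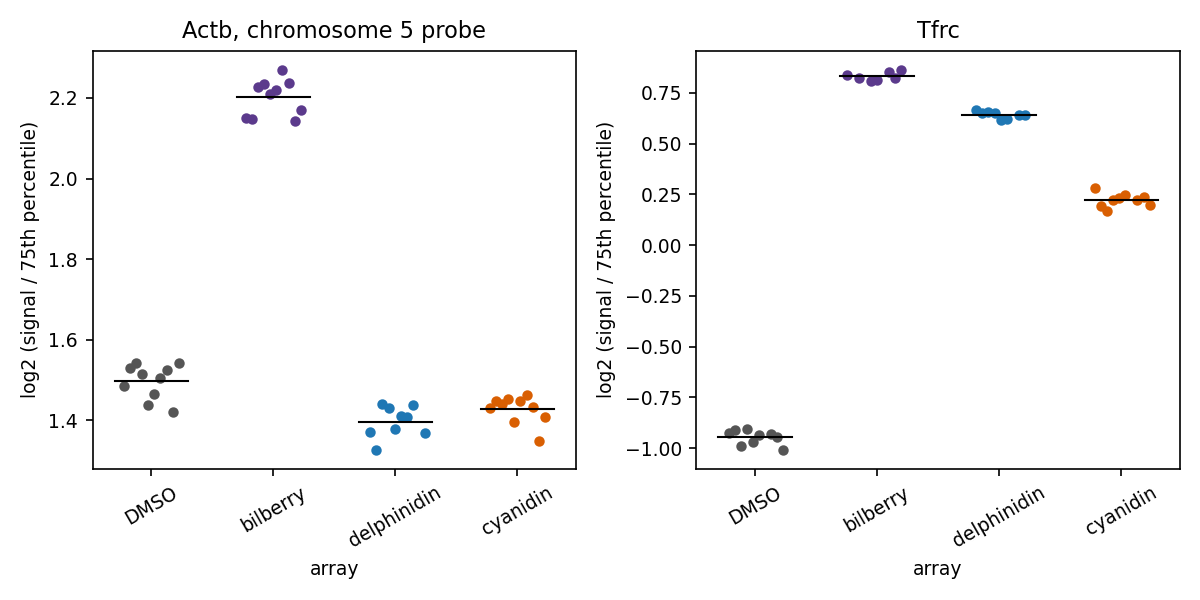
Single-spot levels (log2 of processed signal over the array's 75th percentile) of the Actb NM_007393 probe on chromosome 5 and of the Tfrc probe, by array, with spots marked as outliers left out and a line at the mean of each array's spots. The bilberry spots of Actb lie at 2.14 to 2.27, above those of the other arrays, and for Tfrc the spots of the 4 arrays do not overlap.

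Actb encodes cytoplasmic β-actin, the main building block of the microfilaments, and 2 probes carried its name. The NM_007393 probe lies at chr5:143168706-143168765 (mm8, minus strand), and its levels were 1.5 ± 0.043 in DMSO, 2.20 ± 0.045 under bilberry, 1.40 ± 0.038 under delphinidin and 1.43 ± 0.034 under cyanidin (SD over spots). The bilberry spots, from 2.14 to 2.27, lay above all others, and the DMSO, delphinidin and cyanidin spots overlapped. In folds over DMSO this was 1.63, 0.933 and 0.953. Without the bilberry array the levels ranged over 0.10, against 0.80 with it, a range at the 72.0th percentile of all detected probes.

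The other Actb probe was named for the cDNA clone BC016624 and placed at chrX:147774990-147775049 (mm8, plus strand), away from the gene's own position on chromosome 5. Which transcripts it reads was not tested. Its levels were 4.42 in DMSO, 5.41 under bilberry, 4.42 under delphinidin and 4.33 under cyanidin, each from 1 spot. Bilberry was again the array apart, with a ratio of 0.99 (1.98-fold), just inside the 2-fold limit, while delphinidin and cyanidin had -0.00 and -0.09. Under the spike-ins the bilberry ratios of the probes were -0.82 (NM_007393) and -0.54 (BC016624). The all-spot normexp fit gave 0.23 and 0.36, and its refit gave 0.66 and 0.94. The unscaled processed signal of the NM_007393 probe was 2453 in DMSO, 2674 under bilberry, 2677 under delphinidin and 2751 under cyanidin, so before scaling the bilberry signal lay between those of DMSO and delphinidin.

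Tubb5, a β-tubulin of the microtubules, followed the pattern of Actb. Its probe at chr17:35442980-35443039 (mm8, minus strand, NM_011655) had levels of 6.99 in DMSO, 8.03 under bilberry, 7.22 under delphinidin and 7.08 under cyanidin, which is 2.06-fold, 1.18-fold and 1.07-fold over DMSO. Bilberry was above the other arrays, which lay close together, and the ratio of 1.04 turned to -0.49 under the spike-ins. It was under 2-fold also after quantile normalization (0.69), with the all-spot normexp fit (0.37) and with its refit (0.97). A neighbouring Tubb5 probe at chr17:35443071-35443130 had its bilberry spot marked as an outlier by the scanner software, and its ratios were 0.31 with delphinidin and 0.25 with cyanidin. With the marked spot kept, its bilberry ratio was 1.11.

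Ppia encodes cyclophilin A, an enzyme that turns proline bonds during protein folding. Its probe (NM_008907, chr11:6318122-6318275 in mm8) had levels of 3.85 ± 0.041 in DMSO, 4.67 ± 0.033 under bilberry, 4.17 ± 0.031 under delphinidin and 4.40 ± 0.049 under cyanidin. DMSO was the lowest of the 4 arrays, and the folds were 1.76, 1.25 and 1.46. The bilberry log2 ratio of 0.81 was -0.71 under the spike-ins and 0.21 with the all-spot normexp fit, below delphinidin and cyanidin in both. With cyanidin Ppia had the highest ratio of the members after Tfrc, at 0.54.

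Hprt1 encodes hypoxanthine phosphoribosyltransferase, which recycles purine bases into nucleotides. Its levels were 5.33 ± 0.034 in DMSO, 5.79 ± 0.036 under bilberry, 5.54 ± 0.038 under delphinidin and 5.50 ± 0.029 under cyanidin (NM_013556, chrX:49266207-49266266 in mm8). Gusb encodes β-glucuronidase, a lysosomal enzyme, and its NM_010368 probe (chr5:130273966-130274025, minus strand) had 2.19 ± 0.046, 2.59 ± 0.051, 2.36 ± 0.038 and 2.31 ± 0.036 in the same order. Both genes were lowest in DMSO and highest with bilberry, by 0.46 for Hprt1 and 0.40 for Gusb, and both bilberry ratios turned negative under the spike-ins. With the all-spot normexp fit they were -0.18 and -0.11, and with the refit 0.41 and 0.36. The other Gusb probe (BC004616, chr5:130284388-130284447) was higher by 0.57, 0.40 and 0.27 in bilberry, delphinidin and cyanidin.

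Tbp encodes the TATA-binding protein, the subunit of TFIID that binds promoters. It was among the steadiest members, with levels of -2.10 ± 0.040 in DMSO, -2.07 ± 0.055 under bilberry, -2.00 ± 0.049 under delphinidin and -1.91 ± 0.043 under cyanidin at the BC012685 probe (chr17:15218577-15219244 in mm8). That range of 0.19 lay at the 6.17th percentile of all detected probes. The NM_013684 probe (chr17:15221676-15221735) had -2.16, -1.93, -2.02 and -1.96, a range of 0.23. The bilberry ratios of these probes, 0.04 and 0.23, were 0.95 and 1.01 with the all-spot normexp fit but 0.13 and 0.28 with the refit. With the all-spot fit Tbp was the least steady member after Tfrc by the pairwise variation given below (0.57).

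B2m encodes β2-microglobulin, the light chain of MHC class I molecules. Its probe spotted 10 times (NM_009735, chr2:121844230-121844286 in mm8) had levels of 3.27 ± 0.023 in DMSO, 3.12 ± 0.030 under bilberry, 3.22 ± 0.022 under delphinidin and 3.17 ± 0.025 under cyanidin. The range of 0.14 was at the 2.95th percentile of all detected probes. This probe was lower than DMSO in every treatment, by ratios of -0.14, -0.05 and -0.09, but under the spike-ins delphinidin and cyanidin turned to 0.21 and 0.15. The NM_009735 probe next to it (chr2:121844106-121844165) gave 0.20, -0.01 and 0.12, so the probes differed in sign with bilberry and cyanidin. Its bilberry ratio was -0.06 after quantile normalization and -0.45 with the all-spot normexp fit. A dim probe for the clone AK086184 (chr2:121840304-121840363) gave 0.13, -0.64 and -0.67, with delphinidin and cyanidin below DMSO and bilberry close to it. That bilberry ratio was 0.84 with the all-spot normexp fit, 0.21 with the refit and -1.40 under the spike-ins.

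Ywhaz encodes the 14-3-3 zeta adaptor, which binds phosphorylated proteins. The brighter of its NM_011740 probes (chr15:36715335-36715347 in mm8, minus strand) had levels of 2.28 in DMSO, 2.17 under bilberry, 2.32 under delphinidin and 2.13 under cyanidin. That range of 0.19 lay at the 6.33th percentile of all detected probes. Bilberry and cyanidin were slightly below DMSO at this probe, by ratios of -0.11 and -0.15. Under the spike-ins these were -1.64 and 0.09. The bilberry ratio was -0.27 after quantile normalization and -0.57 with the all-spot normexp fit. The other NM_011740 probe (chr15:36719874-36720014) spanned more, with 1.53, 0.79, 1.61 and 1.10 and ratios of -0.75 with bilberry and -0.43 with cyanidin. A probe for the clone AK050511, placed on chromosome 1, was not detected on any array and is given no ratio.

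Promoter sequence is shown for Tfrc (1 of its 2 RefSeq windows), whose level moved most by the 75th percentile scaling, and for Hprt1 and Gusb, whose levels kept the closest distance from each other. RefSeq windows from 250 bases before to 50 after a transcript start were matched for 7 of the 9 genes (8 windows, GRCm38.p6). Capitals mark, on either strand, the TATA core TATAA, the CCAAT box CCAAT, the GC box GGGCGG and the cAMP response element core TGACGT.
Tfrc, chr16:32608872-32609171, plus strand: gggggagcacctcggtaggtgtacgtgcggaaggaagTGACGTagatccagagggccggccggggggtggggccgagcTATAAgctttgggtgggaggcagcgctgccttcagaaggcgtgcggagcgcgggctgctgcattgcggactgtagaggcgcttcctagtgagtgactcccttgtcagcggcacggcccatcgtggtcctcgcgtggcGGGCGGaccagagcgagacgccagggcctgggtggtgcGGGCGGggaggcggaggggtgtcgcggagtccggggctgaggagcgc
Hprt1, chrX:52987828-52988127, plus strand: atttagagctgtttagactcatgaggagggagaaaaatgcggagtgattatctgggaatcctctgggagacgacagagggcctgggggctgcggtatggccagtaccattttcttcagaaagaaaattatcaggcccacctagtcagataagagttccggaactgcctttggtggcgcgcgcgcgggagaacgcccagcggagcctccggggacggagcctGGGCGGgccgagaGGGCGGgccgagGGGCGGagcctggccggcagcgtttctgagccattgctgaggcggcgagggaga
Gusb, chr5:130003000-130003299, minus strand: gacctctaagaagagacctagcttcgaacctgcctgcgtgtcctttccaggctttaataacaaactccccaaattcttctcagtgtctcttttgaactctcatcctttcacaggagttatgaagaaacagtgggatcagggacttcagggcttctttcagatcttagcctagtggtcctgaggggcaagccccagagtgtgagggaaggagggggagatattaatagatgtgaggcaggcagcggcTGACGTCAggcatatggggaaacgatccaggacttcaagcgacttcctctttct
The Tfrc window held 1 TATAA, 2 GGGCGG and 1 TGACGT, the Hprt1 window 3 GGGCGG, and the Gusb window the stretch TGACGTCA, which holds TGACGT once on each strand. Over the 8 windows, 3 held TATAA, 3 CCAAT, 5 GGGCGG and 3 TGACGT. The Tfrc windows overlap and share the same TGACGT, so that motif was found in 2 genes, Gusb and Tfrc. Of all 32851 mouse windows of this length, 24.9% held TATAA, 37.4% CCAAT, 35.7% GGGCGG and 7.51% TGACGT. The GC content of the members' windows was 49.7% to 70.7%, beside a median of 52.7% in all. Such matches describe the letters in the window and no binding was measured.

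A pair of reference genes that move together keeps a constant distance, and dividing an array by a constant does not alter it. The steadiness of each gene was therefore also measured as the SD over the 4 arrays of its log2 difference from each other member. Averaged over the 8 other members, this pairwise variation was 0.25 for Hprt1, 0.25 for Gusb, 0.29 for Tbp, 0.29 for B2m, 0.31 for Ppia, 0.37 for Tubb5, 0.39 for Ywhaz, 0.42 for Actb and 0.67 for Tfrc. Neighbours in this order lay close, apart from the gap to Tfrc. Actb was thus the second least steady by its brighter probe. With the NM_007393 probe in its place, its value was 0.34, below Tubb5 (0.37) and Ywhaz (0.38). With the mean of each gene's probes detected on all 4 arrays, Ywhaz had 0.52, the highest after Tfrc, and Actb had 0.40. The measure is relative to the other members, and by its brightest probe Ywhaz had the smallest range of all members, at 0.19. By its brighter probe Actb had rank 5 from the steadiest with the all-spot normexp fit. Tbp had 0.57 with that fit, the highest value after Tfrc. Without the bilberry array Actb had 0.23, below Ywhaz (0.25) and Ppia (0.29). Hprt1 and Gusb then had 0.18 each and Tfrc 0.75, so Tfrc was the least steady with or without bilberry.

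Of the 36 pairs, Hprt1 with Gusb had the lowest SD of the difference, at 0.027, and it was 0.055 after quantile normalization and 0.064 with the all-spot normexp fit. Tbp with B2m came next at 0.069, each by a probe spotted once. With the all-spot normexp fit the bilberry ratios of these probes were far apart, at 1.01 for Tbp and -0.45 for B2m. By the probes spotted 10 times, the cyanidin ratios were 0.19 for Tbp and -0.09 for B2m. Actb kept closest to Tubb5, at 0.11 (0.16 by its NM_007393 probe and 0.22 after quantile normalization), and the widest pair was Ywhaz with Tfrc at 0.83. Scaling an array by a constant cannot alter these differences. With both normexp fits, after quantile normalization and with marked spots kept, which can, Tfrc was still the least steady gene, Hprt1 with Gusb the closest pair and Tubb5 the closest member to Actb. Gusb had the lowest mean with the all-spot normexp fit and after quantile normalization, and Hprt1 in the other settings.

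**Figure D4:**
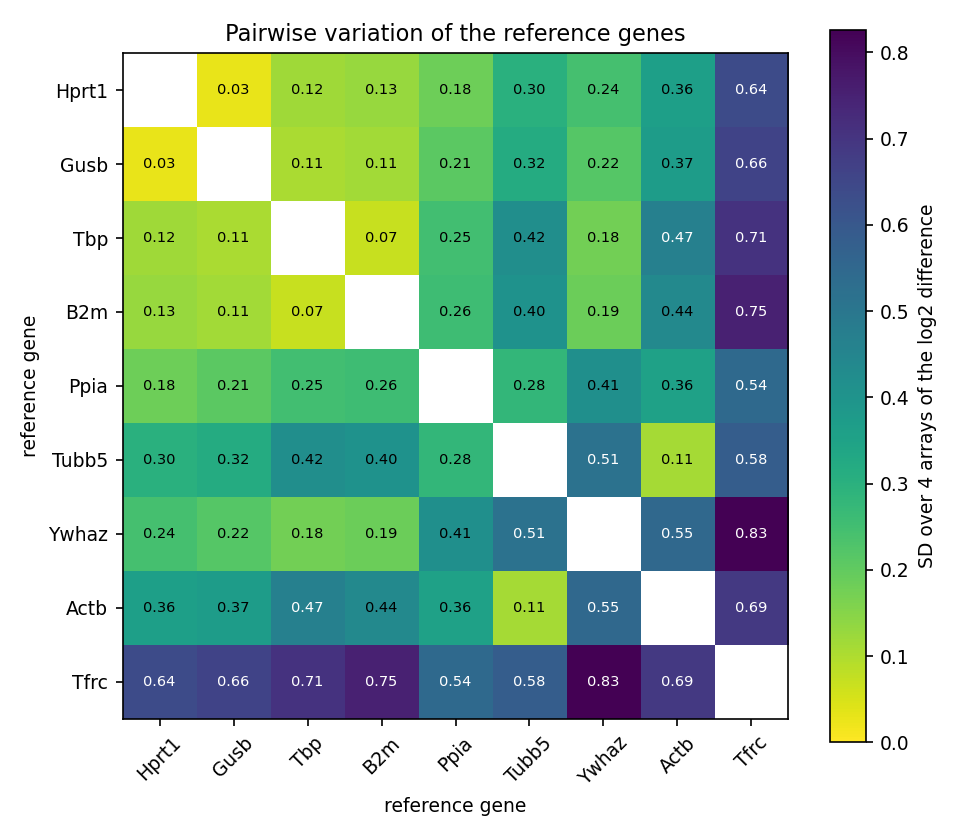
SD over the 4 arrays of the log2 difference between each pair of reference genes, each gene represented by its brightest probe. Tfrc with Ywhaz has the widest difference, at 0.83, and Hprt1 with Gusb the smallest, at 0.027.

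The choice of reference bears on the genes the study followed by RT-PCR. These are Pparg, Cebpa, Cebpb, Cebpd, Klf5 and Srebf1, which encode transcription factors of adipogenesis or lipid synthesis, and Adipoq, which encodes the fat cell hormone adiponectin. A Srebf1 spot was marked, and the other 6 genes were expressed relative to each reference. Against Actb with bilberry, the log2 ratio to DMSO was -0.83 for Pparg, -2.06 for Adipoq, -0.48 for Cebpa, -0.44 for Cebpb, -0.68 for Cebpd and -0.26 for Klf5. Against the array's 75th percentile the same genes had 0.15, -1.07, 0.50, 0.54, 0.30 and 0.72. All 6 were thus lower relative to Actb by its brighter probe (BC016624), though Klf5 was not by NM_007393. The study listed its β-actin primers under NM_007393, the transcript for which the other Actb probe is named. Only Adipoq was lower by the array scale.

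Adipoq was lower with bilberry against each of the 9 references, from -2.85 to -0.96, and past 2-fold lower against 8. The sign for the other genes depended on the reference. Pparg was lower against 8 references, Cebpd against 6 and Cebpa, Cebpb and Klf5 against 4 each. Replacing the brighter Actb probe with NM_007393, the transcript of the study's primers, gave smaller differences with bilberry. These were -0.55 for Pparg, -1.78 for Adipoq, -0.20 for Cebpa, -0.16 for Cebpb, -0.40 for Cebpd and 0.02 for Klf5. From the lowest to the highest reference, any target's ratio moved by 1.89 under bilberry, 1.60 under delphinidin and 1.32 under cyanidin. Tfrc gave the lowest ratio each time. Against the other references Pparg had -0.89 to 0.26 under bilberry, -0.01 to 0.32 under delphinidin and -0.23 to 0.46 under cyanidin. Against Actb, delphinidin and cyanidin gave 0.31 and 0.40 for Pparg, -0.19 and 0.32 for Adipoq, 0.20 and 0.41 for Cebpa and 0.48 and 0.48 for Klf5. Cebpb with -0.07 and -0.22 and Cebpd with -0.23 and -0.17 were below DMSO in both by the brighter Actb probe. With NM_007393 in its place, Cebpb had 0.03 under delphinidin, and the other delphinidin and cyanidin signs did not change.

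**Figure D5:**
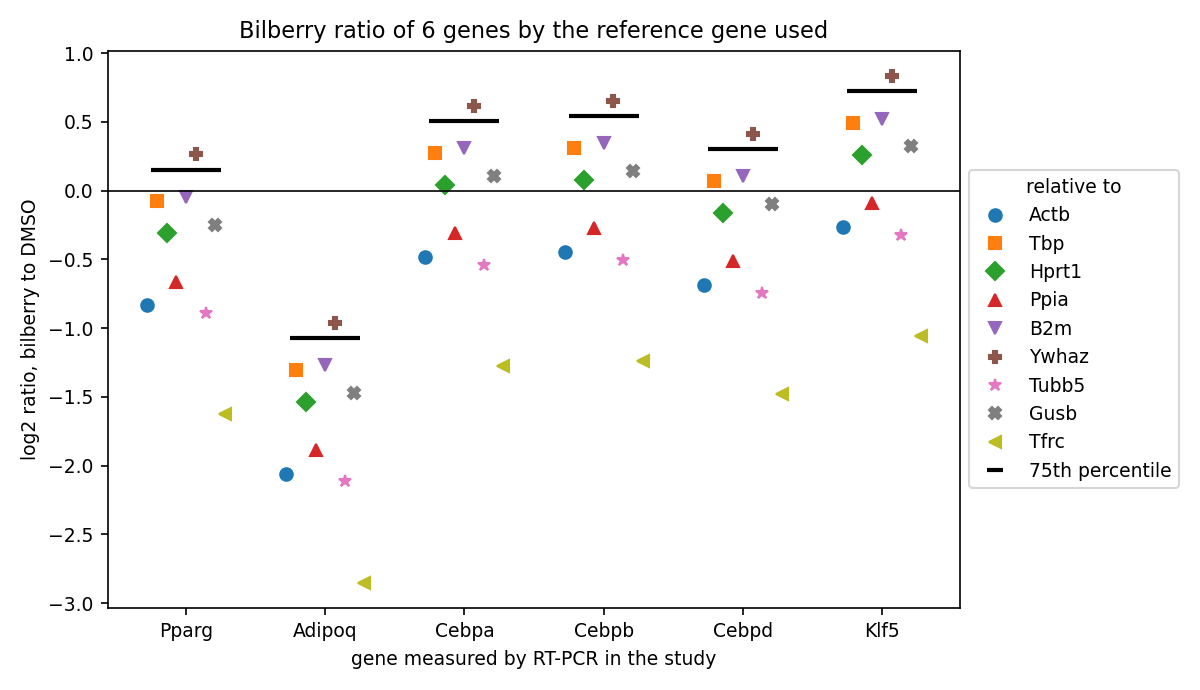
Log2 ratio to DMSO with bilberry of 6 RT-PCR target genes, set against each of the 9 reference genes (points) and against the array's 75th percentile (bars). Each reference gene is represented by its brightest probe, which for Actb is BC016624. Adipoq lies below 0 with every reference, from -2.85 to -0.96, and the other genes lie on both sides of 0.

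Genes related to each member by family or pathway were counted among probes detected on all 4 arrays, with 2-fold as the limit. Over all detected probes 11.1% were past it with bilberry, 2.41% with delphinidin and 2.3% with cyanidin, so in lists this short a count of 0 or 1 is near that share. Around Tfrc, 8 iron-handling genes were measured well, and 1 of 8 was past 2-fold, the iron transporter Slc11a2, with ratios of 1.01 (-0.51 under the spike-ins and 0.93 with the all-spot normexp fit), 0.42 and 0.51 in bilberry, delphinidin and cyanidin. Around Tubb5, 3 of 6 β-tubulins were past 2-fold higher with bilberry (4.17% of all detected probes), with 1.23 for Tubb2c, 1.09 for Tubb6 and 1.07 for Tubb4. Tubb2b, read by a dim probe, was lower with cyanidin at -1.17. That ratio was inside 2-fold under the spike-ins (-0.92), after quantile normalization (-0.94) and with the all-spot normexp fit (-0.54). The median ratio of the 6 with bilberry was 1.00, beside 0.14 for all probes, and the 3 higher ratios turned negative under the spike-ins. After quantile normalization Tubb2c alone of them was past 2-fold, at 1.11, and with the all-spot normexp fit none was, at 0.71, 0.46 and 0.47. None of 5 actins was past 2-fold in any treatment, with 0.68, -0.04 and 0.19 for Actg1 and 0.22, -0.01 and -0.11 for Acta2. Nor was any of 8 genes for actin-binding proteins. The bilberry ratios of Actg1 and Acta2 were 0.36 and -0.01 after quantile normalization and 0.01 and -0.37 with the all-spot normexp fit. Under the spike-ins they were -0.85 and -1.30, the latter past 2-fold.

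Among 9 cyclophilins, Ppig was lower with bilberry at -2.99 and Ppih higher at 1.05. The Ppih ratio was -0.48 under the spike-ins, 0.86 after quantile normalization and 0.54 with the all-spot normexp fit, each inside 2-fold. None of 13 TFIID subunits and TBP relatives, 5 genes for 14-3-3 proteins, 6 purine salvage genes and 9 genes of MHC class I and its peptide loading was past 2-fold. The TFIID group had a median range of 0.30 and the 14-3-3 group 0.22, beside 0.56 for all probes. All 15 lysosomal hydrolase genes, the family of Gusb, were higher with bilberry, as were 59.5% of all detected probes, with none past 2-fold and a median of 0.70 that is below 0 under the spike-ins. Among the brightest of them, Ctsd, the protease cathepsin D, had 0.70, 0.56 and 0.45, and Man2b1, a mannosidase, had 0.81, 0.28 and 0.56. Their bilberry ratios were 0.42 and 0.54 after quantile normalization. With the all-spot normexp fit they were 0.08 and 0.19, below those of delphinidin and cyanidin.

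Another 28 genes in use as references elsewhere were detected, with a median range of 0.59 over the 4 arrays. Of these, 2 of 28 were past 2-fold with bilberry, no larger a share than the 11.1% of all detected probes, and both were lower, namely Top1, DNA topoisomerase I, at -2.09 and the ribosomal protein gene Rpl4 at -1.38. A range smaller than the 0.80 of the Actb NM_007393 probe was found for 19 of the 28, and 1 of them, Top1, had a larger range than Tfrc. Nono, named here after its value was seen, had a range of 0.08. The glycolytic gene Gapdh, named likewise, had ratios of 0.31, -0.54 and -0.43.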

How the data were processed

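The 4 arrays (Agilent Whole Mouse Genome, 1 dye) were scanned and read by the authors with Feature Extraction, version 9.5.1.1 per the file headers, which also name the genome build mm8. The authors deposited spot intensity values, already background-subtracted in the processed signal. The deposited series table held the same intensity values, with a largest relative difference of 0. Control spots and spots marked as outliers were left out, and spots of 1 probe were averaged. Processed signals were divided by each array's 75th percentile over non-control spots and log2-transformed. With 1 array per condition no test was possible, and precision is limited by how few arrays there were. Among 143 probes spotted 10 times, replicate spots had a median SD of 0.034.

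All member probes were reported, a gene being represented by its brightest probe. From each related list, at most 4 genes past 2-fold were named. For the actins and lysosomal hydrolases, which had none, the 2 brightest were named. The other lists with none past 2-fold were given without named genes. The 3 genes closest to Actb and the 3 steadiest were named too. The members and lists were chosen with earlier results of these data known. Levels of different probes were compared only to choose or describe bright and dim probes. Alternatives were normexp background correction (limma 3.58.1, R 4.3.3, offset 50) on all spots or without marked background spots, quantile normalization, the median of detected probes, the percentile with control spots, the median of 10 spike-in RNAs, marked spots kept, the deposited table, thresholds of 1.5-fold and 3-fold, the mean of a gene's probes, and other reference genes. Python 3.11.15, numpy 2.4.6, pandas 2.3.3 and matplotlib 3.10.9 were used, and the calculations were tested on simulated data. Promoter windows came from RefSeq.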

Additional observations from a re-analysis of the deposited data

How the results depend on the processing

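With 1 array per condition, no difference here has a replicate check, and culture, hybridisation and treatment cannot be told apart. The count of member probes past 2-fold with bilberry was 2. It was 3 with the median of detected probes and with marked spots kept. It was also 3 with normexp on all spots, but those were Tfrc, a Tbp probe and the undetected Ywhaz probe, without Tubb5. It was 1 with normexp refitted without marked background spots and after quantile normalization, 6 at 1.5-fold and 1 at 3-fold. Under the spike-ins it was 9, all lower than DMSO and none of them among the original 2. The count with delphinidin went from 1 to 2 at 1.5-fold. That with cyanidin went from 1 to 2 at 1.5-fold and to 0 at 3-fold. The median range of the 9 genes was 0.46, and it was 0.55 with normexp, 0.41 with the refitted normexp, 0.35 after quantile normalization and 1.57 under the spike-ins. The pairwise variation of Actb was 0.34 in place of 0.42 with its NM_007393 probe, an alternative chosen after seeing the data. The bilberry ratio of Tubb5 turned to -0.49 under the spike-ins. Spike-in scaling subtracts a constant from every bilberry ratio, and for the other changes the cause was not tested. No paired analysis was possible because each condition has 1 array. Probes not detected limit what can be read for the Ywhaz clone probe.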

Other observations

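By distance over the 3 log2 ratios to DMSO, among 14376 genes detected on all 4 arrays, those closest to the brighter Actb probe were Gsh1 (0.051), the transcript NAP071025-1 (0.052) and the β-tubulin gene Tubb3 (0.055). Closest to the NM_007393 probe were G6pc3, a glucose-6-phosphatase (0.015), D330001F17Rik (0.037) and Hk1, a hexokinase (0.041). Within a distance of 0.2 lay 76 genes for the brighter probe and 317 for NM_007393, and these neighbours are a description of 4 arrays that share 1 control.

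The genes with the smallest range over the 4 arrays were Ddx19a, an RNA helicase gene, at 0.012, Klhl7 at 0.014 and Smyd4 at 0.023, of 14377 genes. Replicate spots of 1 probe had a median SD of 0.034, so the order of these ranges was not resolved.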
